A study of Homo sapiens with 6 samples.

Results

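CLDN12 and 8 other tight junction genes (CLDN1, CLDN7, CLDN11, TJP1, OCLN, F11R, MARVELD2 and CGN) were followed in KGN cells depleted of FOXL2. The 9 genes were taken by symbol from the 60671 genes of each expression table. They were selected on the fold change between FOXL2 siRNA and control siRNA, in which CLDN12 was among the genes called, with the others taken as further genes of the tight junction, so their values in that comparison are given as a description and no p-value is given for them.

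KGN is an established human granulosa cell tumour line, and the cells used here had been edited with Crispr so that both alleles of FOXL2 were wild type (genotype FOXL2 WT/WT). All 6 libraries share this genotype. FOXL2 is a forkhead transcription factor of ovarian granulosa cells. In 3 libraries the cells had received 30 pmol of a pool of 3 siRNAs against FOXL2, and in the other 3 an equal amount of a scrambled control siRNA. RNA was extracted 30 h later. Each FOXL2 pool combined a different 3 of 4 siRNAs and 1 of the 4 was in every pool, so the FOXL2 siRNA replicates repeat the knock-down but differ in their siRNAs. The labels do not say whether the libraries came from separate cultures, and p-values therefore measure the spread between these libraries, which may be technical. The total expected count (the number of reads that RSEM assigned to genes) was 25025168, 24592016 and 27316167 in control siRNA replicates 1, 2 and 3, and 27382590, 23843192 and 28791954 in FOXL2 siRNA replicates 1, 2 and 3. Values of the 6 libraries are given below in this order.

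Tight junctions seal the space between neighbouring epithelial cells. Claudins form the strands and set which ions and small solutes pass, occludin and tricellulin are membrane proteins of the MARVEL family that join these strands, and the junctional adhesion molecules are immunoglobulin-like proteins beside them. Cytoplasmic scaffolds such as ZO-1 (TJP1) and cingulin (CGN) tie the strands to the actin cytoskeleton. Granulosa cells are epithelial in arrangement inside the follicle, where they are joined mostly by adherens and gap junctions.

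FOXL2 itself was counted 248, 238 and 290 times in the control siRNA libraries and 72, 80 and 68 times in the FOXL2 siRNA libraries. Its log2 fold change was -1.88 (SE 0.14, adjusted p = 0.00267 in edgeR's quasi-likelihood test), in the direction of the labels in every library. The first principal component of the tested genes, with 29.4% of the variance, set FOXL2 siRNA replicate 2 apart from the rest, with a score of 47.0 against -19.8 for control siRNA replicate 3 at the other end. The median effective length of the tested genes was 2025 bases in that library and between 1907 and 1936 bases in the other 5. Effective length is the length of a gene's transcripts as RSEM weights them by the reads of each library, and it is the quantity by which a count is divided to give a TPM. Some values below are also given without this library.

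The cells lacked several genes that define granulosa cells. FSHR, the FSH receptor, and WT1 were at 0 in all libraries. GATA4, AMHR2 and INHA did not exceed 0.25 TPM, and CYP19A1 (aromatase) reached 0.68 TPM in FOXL2 siRNA replicate 2 and at most 0.19 TPM elsewhere. The 0.68 TPM came from 3 counts at an effective length of 287 bases. AMH, NR5A1, FST and INHBA were present in all libraries, AMH at 28.3 TPM and NR5A1 at 34.6 TPM in control siRNA replicate 3. Of the epithelial markers, KRT7 was abundant (60.5 to 70.9 TPM), while CDH1, the classical epithelial cadherin, did not exceed 0.52 TPM and ESRP1 did not exceed 0.03 TPM. The 0.52 TPM of CDH1, in control siRNA replicate 1, came from 1 count at an effective length of 113 bases.

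The CLDN12 promoter is shown because CLDN12 is the member that was called and FOXL2 binds DNA through a forkhead domain. Its window is chr7:90403211-90403510 on the plus strand (RefSeq, GRCh38.p14), 250 bases before the start site and 50 after it, and the 5-letter forkhead core AAACA, read as TGTTT on the other strand, is in capitals.
CLDN12: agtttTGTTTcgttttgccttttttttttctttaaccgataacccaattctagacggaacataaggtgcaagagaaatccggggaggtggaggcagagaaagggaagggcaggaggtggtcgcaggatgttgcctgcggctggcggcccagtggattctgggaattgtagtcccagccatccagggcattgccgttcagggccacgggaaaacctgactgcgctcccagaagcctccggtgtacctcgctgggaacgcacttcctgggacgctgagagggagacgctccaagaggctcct
In GENCODE v29, 7 of the 15 CLDN12 transcripts start inside this window, 1 starts upstream of it and runs past it, and 158 of its bases are exonic. The core occurs once, 245 bases before the start. It is a short word, present in 44.4% of 35116 promoter windows of the same length, and it was found in 7 of the 14 windows of the 8 members that had one, those of CLDN11, CLDN12 and TJP1. The longer word GTAAACA, which contains the core, occurs in 3.42% of all windows (both strands) and in 0 of the 14. These matches describe the letters of the windows and say nothing of binding.

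The study selected RNA aptamers of FOXL2 that were rich in G doublets, so the longest GENCODE v29 transcript of each member was searched for 8 G doublets with gaps of 1 to 4 bases. Such a run was present in 2 of the 9 members and in 19.3% of the tested genes with a transcript (2993 of 15530). CLDN12 had none. The runs of OCLN (chr5:69509433-69509476, plus strand) and CGN (chr1:151530053-151530083, plus strand) each lie in the coding part of a single exon and are printed with the counted doublets in capitals (GRCh38).
OCLN: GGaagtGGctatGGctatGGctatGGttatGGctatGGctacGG
CGN: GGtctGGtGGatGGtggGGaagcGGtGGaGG

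CLDN12 (ENSG00000157224) encodes a claudin known for paracellular calcium permeability. Its counts were 642, 643 and 652 with control siRNA and 1173, 1155 and 1125 with FOXL2 siRNA. Scaled to library size by TMM, the values were 25.6, 26.2 and 24.3 CPM (counts scaled to a common library size) against 42.9, 47.7 and 39.0 CPM. Every FOXL2 siRNA library was above every control siRNA library, and the values were closer together within a condition than between conditions. The mean was 25.4 ± 0.972 CPM (SD, n = 3) with control siRNA and 43.2 ± 4.36 CPM with FOXL2 siRNA, a ratio of 1.70, and the fitted log2 fold change was 0.77 (SE 0.09). CLDN12 was 1 of the 40 genes that edgeR called (17 higher and 23 lower, 0.255% of the 15663 tested), and the 6th largest of the 17 higher ones. DESeq2, which called 350 of 11675 genes (3.00%), called it as well. Without FOXL2 siRNA replicate 2 the log2 fold change was 0.69 and CLDN12 was still called. Without control siRNA replicate 1, 2 or 3 the log2 fold change stayed above 0.7 but CLDN12 was not called, and edgeR then called 2, 3 and 2 genes in all.

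On the TPM scale, which divides by effective length, CLDN12 was at 21.5, 22.9 and 19.9 with control siRNA and at 34.1, 33.1 and 32.0 with FOXL2 siRNA. The means were 21.4 ± 1.51 and 33.1 ± 1.07 TPM, and the ratio was 1.54, smaller than in counts. Its effective length was 1769, 1707 and 1773 bases with control siRNA and 1842, 2271 and 1809 bases with FOXL2 siRNA, so that all FOXL2 siRNA libraries lay above all control siRNA libraries, replicate 2 the furthest. Over all tested genes, 7.54% had effective lengths apart in this direction and 9.30% had TPM values apart in this direction. With effective lengths as offsets in the fit, the log2 fold change was 0.63 in edgeR.

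The GENCODE v29 span of CLDN12 (chr7:90383721-90513402, plus strand) overlaps GTPBP10 and CDK14 on the same strand. Of the 75-base words of the CLDN12 transcripts, 10.3% also occur in transcripts of other genes, 3.80% in GTPBP10, 1.76% in CDK14, and 2.52% and 2.22% in AC006153.1 and AC002456.2, same-strand genes at 0 in all libraries. Reads from such words are divided between the genes by RSEM's estimate. GTPBP10, a GTPase gene, had 326.0, 296.2 and 347.9 expected counts against 344.8, 414.0 and 344.0, with a log2 fold change of 0.12 (SE 0.14, adjusted p = 0.732 in edgeR). Its conditions overlapped. CDK14, which encodes a cyclin-dependent kinase, had 646.3, 699.0 and 734.0 against 868.7, 846.3 and 879.5, with a log2 fold change of 0.25 (SE 0.08, adjusted p = 0.243 in edgeR). The CDK14 counts did not overlap, also in CPM, beside 9.97% of all tested genes that were higher in CPM in this way. Its TPM values overlapped.

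**Figure D1:**
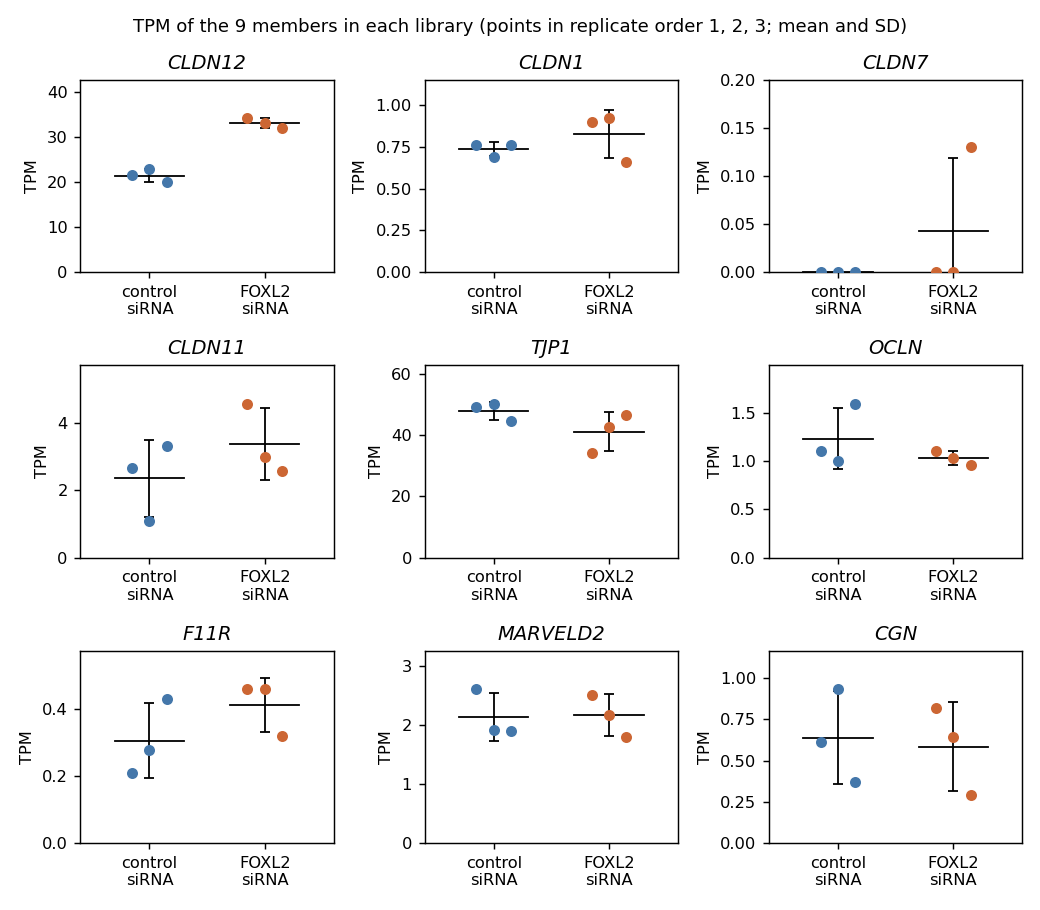
TPM of each of the 9 genes (vertical axis, from 0) in the 3 control siRNA libraries (blue) and the 3 FOXL2 siRNA libraries (orange), with the mean and SD as lines. CLDN12 is the member whose TPM values did not overlap, at 19.9 to 22.9 against 32.0 to 34.1.

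The members covered a wide range of levels. In the control siRNA libraries TJP1 was highest at 47.9 ± 3.03 TPM (SD, n = 3), followed by CLDN12 at 21.4 ± 1.51 TPM. CLDN11 (2.35 ± 1.14 TPM) and MARVELD2 (2.14 ± 0.402 TPM) came next and overlapped each other. OCLN was at 1.23 ± 0.316 TPM. CLDN1 (0.737 ± 0.0404 TPM) overlapped CGN (0.637 ± 0.281 TPM), which overlapped F11R (0.307 ± 0.112 TPM). CLDN7 was at 0. TJP1, CLDN12, MARVELD2, OCLN and F11R did not overlap the member ranked after them.

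The other claudin members were low. CLDN1 (ENSG00000163347, chr3:190305701-190322475, minus strand), which is required for the barrier of the epidermis, had 42, 37 and 46 counts with control siRNA and 55, 46 and 42 with FOXL2 siRNA, with a log2 fold change of 0.12 (SE 0.20). The conditions overlapped, and leaving out a single library gave log2 fold changes of 0.02 to 0.26. CLDN11 (ENSG00000013297, chr3:170418865-170454733, plus strand), the claudin of myelin and of the Sertoli cell barrier, had 56, 40 and 108 counts against 104, 76 and 86. The spread inside the control condition was wider than the difference between the conditions, whose log2 fold change was 0.31 (SE 0.29). It was 0.07 without control siRNA replicate 2 and 0.77 without control siRNA replicate 3. CLDN7 (ENSG00000181885, chr17:7259903-7263983, minus strand), a claudin of epithelial ducts, had 0 counts in 5 libraries and 3 in FOXL2 siRNA replicate 3, and did not pass the filter on low counts. A count of 0 allows up to 3 counts in a library. Of the CLDN11 words, 16.4% are shared with AC026316.5, which was at 0 in all libraries, and 7.17% of the CLDN7 words are shared with AC003688.1. That gene had 1.3, 0.0 and 1.3 expected counts against 2.6, 0.0 and 5.4, the highest in the library where CLDN7 had counts.

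The MARVEL proteins showed how far a value depends on the scale. MARVELD2 (ENSG00000152939, chr5:69415065-69444330, plus strand) encodes tricellulin, which seals the points where 3 cells meet. It had 99, 97 and 99 counts with control siRNA and 145, 128 and 136 with FOXL2 siRNA, that is 3.95, 3.96 and 3.69 CPM against 5.31, 5.29 and 4.72 CPM. The CPM values did not overlap, and the log2 fold change was 0.40 (SE 0.13). In TPM the values were 2.60, 1.92 and 1.89 against 2.51, 2.17 and 1.80, a ratio of 1.01, and the conditions overlapped. The effective length of MARVELD2 was 2253, 3070 and 2831 bases against 3098, 3844 and 3893 bases, which did not overlap.

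OCLN (ENSG00000197822, chr5:69492292-69558104, plus strand) encodes occludin. It had 51, 45 and 48 counts against 63, 59 and 55, and the log2 fold change was 0.23 (SE 0.18). In TPM the values were 1.10, 1.00 and 1.59 against 1.10, 1.03 and 0.96, so the mean was lower with FOXL2 siRNA on that scale and higher on the other. The OCLN effective length was 2746, 2738 and 1634 bases against 3062, 3745 and 2940 bases, again without overlap. A pseudogene, OCLNP1, shares most of the 7.01% of OCLN words found elsewhere and had at most 7.1 expected counts in a library.

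F11R (ENSG00000158769, chr1:160995211-161021348, minus strand) encodes junctional adhesion molecule A and was scarcely detected. Its counts were 9, 8 and 13 against 18, 15 and 19, with a log2 fold change of 0.71 (SE 0.30). The SE of this gene in DESeq2 was 0.59. The CPM values (0.359, 0.326 and 0.485 against 0.659, 0.620 and 0.659) did not overlap, whereas the TPM values (0.21, 0.28 and 0.43 against 0.46, 0.46 and 0.32) did. With effective lengths as offsets in edgeR the log2 fold change was 0.38. Of its words, 33.7% are shared with AL591806.3, a same-strand gene that had at most 6.3 expected counts.

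TJP1 (ENSG00000104067, chr15:29699367-29968865, minus strand), the ZO-1 scaffold, was the most abundant member and the only tested one with a log2 fold change below 0. Its counts were 3594, 3729 and 3773 against 3068, 3306 and 3879, or 143, 152 and 141 CPM against 112, 137 and 135 CPM. All FOXL2 siRNA libraries were below all control siRNA libraries in CPM, replicate 1 the furthest, and the log2 fold change was -0.19 (SE 0.08), or -0.10 without that replicate. In TPM (49.0, 50.2 and 44.5 against 34.0, 42.7 and 46.4) the conditions overlapped. HMGN2P5 and AC022613.2 lie on the opposite strand of TJP1. HMGN2P5 had 408.2, 389.0 and 503.3 expected counts against 356.4, 329.1 and 445.1, with a log2 fold change of -0.28 (SE 0.10, adjusted p = 0.315 in edgeR), and AC022613.2, with at most 21 counts, had -0.59 (SE 0.35, adjusted p = 0.489 in edgeR). HMGN2P5 is annotated as a processed pseudogene, and neither gene was called. Whether strand was used in the counting is not given in the sources used here, and any exchange of reads with TJP1 was not tested. CGN (ENSG00000143375, chr1:151510510-151538692, plus strand), cingulin, had 28, 26 and 34 counts against 51, 24 and 28. Its log2 fold change of 0.15 (SE 0.30) rested on FOXL2 siRNA replicate 1, without which it was -0.23.

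Of the 9 members, 8 passed the filter on low counts and 1, CLDN12, was called, beside 0.255% of all tested genes. The CPM values were higher without overlap in 3 members (CLDN12, F11R and MARVELD2) and lower in 1 (TJP1), beside 9.97% and 10.6% of all tested genes. The median log2 fold change of the tested members was 0.27, against 0.01 over all tested genes. Because the members were chosen with this comparison in view, nothing is read from these counts. In TPM, CLDN12 alone of the 8 was without overlap, beside 9.30% of all tested genes that were higher in this way. The effective lengths of CLDN12, OCLN and MARVELD2 were higher without overlap, beside 7.54% of all tested genes.

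**Figure D2:**
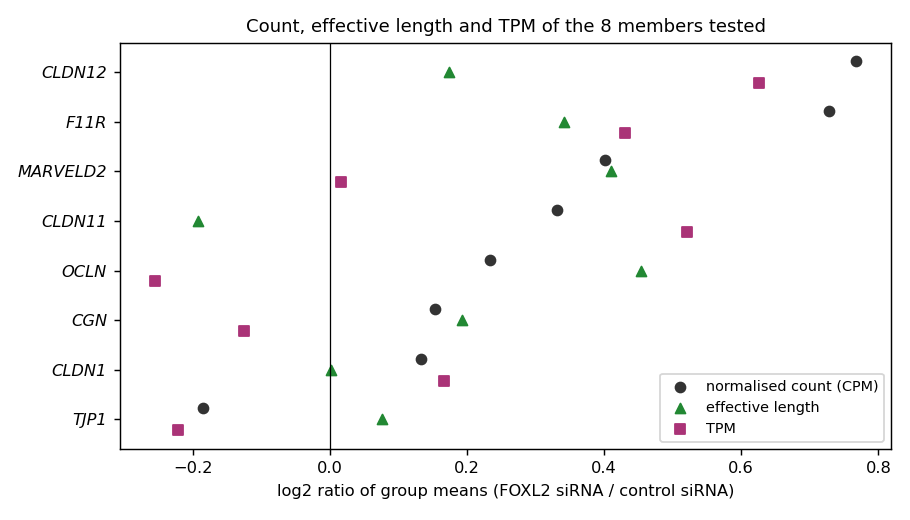
The log2 ratio of the group means, FOXL2 siRNA over control siRNA (horizontal axis), of the TMM-scaled count, the effective length and the TPM for each of the 8 tested members. For MARVELD2 the ratios in count and in length were alike (0.40 and 0.41) and the TPM ratio was near 0 (0.02), while for CLDN12 the TPM ratio was 0.63.

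The claudin family as a whole shows where CLDN12 stands in these cells. Of 24 claudins in the tables, 5 were at 0 in all libraries (CLDN3, CLDN8, CLDN10, CLDN22 and CLDN25), 9 were tested, and 5 had a mean of at least 1 TPM over the libraries (CLDN9, CLDN12, CLDN15, CLDN11 and CLDN4). CLDN9 and CLDN12 together made up most of the claudin TPM. CLDN9 was at 24.2, 22.3 and 42.3 TPM with control siRNA and at 34.0, 37.3 and 28.9 TPM with FOXL2 siRNA, so the conditions overlapped and control siRNA replicate 3 was the highest library. Its log2 fold change was 0.13 (SE 0.22, adjusted p = 0.836 in edgeR), and 0.50 without control siRNA replicate 3. CLDN15, a claudin of intestinal sodium permeability, was at 7.75 ± 0.397 TPM and 8.25 ± 1.28 TPM (log2 fold change 0.08, SE 0.14). Its log2 fold change was -0.02 without FOXL2 siRNA replicate 1 and 0.21 without FOXL2 siRNA replicate 2.

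CLDN12 held 35.4%, 39.3% and 25.5% of the summed claudin TPM with control siRNA and 39.6%, 38.7% and 41.6% with FOXL2 siRNA. These shares overlapped, control siRNA replicate 2 lying above FOXL2 siRNA replicate 2. The lowest share was that of control siRNA replicate 3, where CLDN9 took 54.2%. The summed claudin TPM was 60.7, 58.4 and 78.1 against 86.2, 85.6 and 76.9, and without CLDN12 it was 39.2, 35.5 and 58.2 against 52.0, 52.5 and 44.9. Both sums overlapped between conditions through control siRNA replicate 3.

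**Figure D3:**
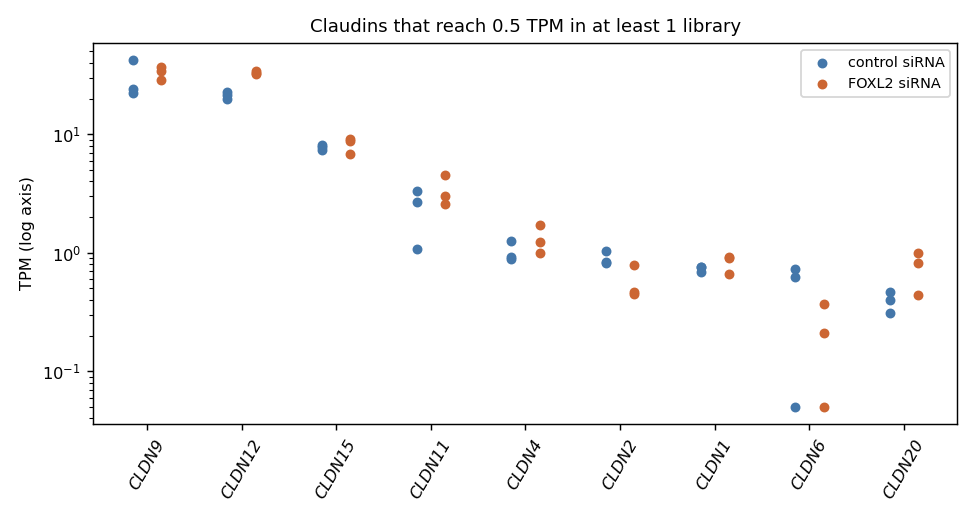
TPM (log axis) of the claudins that reached 0.5 TPM in at least 1 library, with 1 point per library, control siRNA in blue and FOXL2 siRNA in orange. CLDN9 and CLDN12 stand highest, and CLDN12 is separated between conditions, whereas CLDN9 spans 22.3 to 42.3 TPM within the control siRNA libraries.

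The other junction genes were examined in 7 lists that did not include the members, 89 genes in all, of which 56 were tested. None was called higher or lower by edgeR, beside 0.255% of all tested genes. DESeq2 called 0, beside 3.00% of all genes with an adjusted p. At these shares nothing is read from the lack of calls. At an unadjusted p below 0.05, 6 of the 56 passed in edgeR (2 higher, 4 lower), beside 13.5% of all tested genes (2114 of 15663). Their median log2 fold change was 0.005 against 0.0057 over all tested genes, and 3 were higher and 6 lower without overlap in CPM, beside 9.97% and 10.6% of all tested genes. These lists were chosen with earlier results of these data known. No value with a library left out was taken for NECTIN3, whose libraries are given below. Of the other list genes named here, some had log2 fold changes close enough to 0 to change sign with a library left out. These were CLDN4, CLDN9, CLDN15, MARVELD1, ILDR2, JAM2, ESAM, YBX3, AMOTL2, PRKCI, PARD3, LIN7A and VCL.

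Among the other claudins 6 of 20 were tested and 0 were called by edgeR, beside 0.255% of all tested genes. CLDN2, which forms cation pores in leaky epithelia, was at 0.83, 0.82 and 1.04 TPM against 0.45, 0.47 and 0.79 TPM, with a log2 fold change of -0.59 (SE 0.26, adjusted p = 0.364 in edgeR); it was named after its values were seen. CLDN4 had a log2 fold change of 0.08 (SE 0.20), and -0.03 to 0.21 with a library left out. Among the tricellular and MARVEL proteins 3 of 5 were tested. MARVELD1 was the most abundant, at 55.1 ± 1.21 TPM and 53.4 ± 2.40 TPM, and had a log2 fold change of -0.06 (SE 0.08). LSR, the angulin that recruits tricellulin, was at 4.97 ± 0.595 and 5.60 ± 0.151 TPM (log2 fold change 0.09, SE 0.14), and ILDR2 of the same family had a log2 fold change of 0.08 (SE 0.11). With a library left out these values were -0.11 to 0.01 for MARVELD1, 0.02 to 0.19 for LSR and -0.03 to 0.15 for ILDR2.

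Of the 5 other junctional adhesion molecules 3 were tested, and JAM3 was the most abundant, at 6.41 ± 0.316 and 7.26 ± 1.43 TPM. Its log2 fold change in counts was -0.19 (SE 0.13, adjusted p = 0.537 in edgeR), and its mean in TPM went the other way. The log2 fold change was -0.08 without FOXL2 siRNA replicate 1 and -0.32 without FOXL2 siRNA replicate 3. JAM2 and ESAM stayed below 0.8 TPM in all libraries, with log2 fold changes of 0.04 (SE 0.31) and 0.06 (SE 0.37), and with a library left out -0.15 to 0.22 for JAM2 and -0.22 to 0.34 for ESAM.

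Of the 17 other scaffolds 16 were tested, 8 with a log2 fold change above 0 and 8 below. MAGI3 had a log2 fold change of -0.22 (SE 0.08, adjusted p = 0.277 in edgeR) and MAGI2 of 0.24 (SE 0.15, adjusted p = 0.529 in edgeR). In CPM, MAGI3 was lower without overlap, beside 10.6% of all tested genes, and was not called. The 3 most abundant were YBX3 (ZONAB, a ZO-1 partner) at 174 ± 4.58 TPM in control siRNA libraries, ARHGEF2 (GEF-H1) at 119 ± 6.52 TPM and AMOTL2 at 61.0 ± 5.64 TPM. Their log2 fold changes were -0.02 (SE 0.08), -0.11 (SE 0.07) and 0.02 (SE 0.08). That of ARHGEF2 was -0.06 without FOXL2 siRNA replicate 2 and -0.17 without FOXL2 siRNA replicate 3.

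Of 15 polarity genes 9 were tested. PRKCI, PARD3 and LIN7A, the most abundant, had log2 fold changes of 0.03 (SE 0.09), 0.01 (SE 0.08) and 0.01 (SE 0.13). The largest changes were those of LIN7B at -0.40 (SE 0.19), LIN7C at 0.38 (SE 0.21) and PALS1 at 0.18 (SE 0.10), with adjusted p values of 0.401, 0.457 and 0.429 in edgeR. LIN7C reached 8.57 TPM in FOXL2 siRNA replicate 2 and lay between 4.20 and 5.76 TPM in the other 5 libraries. Without that replicate the log2 fold changes of LIN7C and PALS1 were 0.11 and 0.07.

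Adherens and gap junction genes were far more abundant than the tight junction members, and 12 of 15 were tested. Their summed level was 1363 ± 7.17 TPM with control siRNA (SD, n = 3) and 1317 ± 16.5 TPM with FOXL2 siRNA, without overlap, against 76.7 ± 3.49 and 82.6 ± 3.54 TPM for the 9 members. No share over all genes was taken for such sums, and none of the 12 tested genes was called. CTNNA1 (alpha-catenin) was at 243 ± 6.15 TPM, CDH11 at 221 ± 15.5 TPM and VCL (vinculin) at 205 ± 5.57 TPM, with log2 fold changes of -0.11 (SE 0.06), -0.09 (SE 0.07) and 0.03 (SE 0.07). CDH11 was at 187 ± 17.3 TPM with FOXL2 siRNA, lower without overlap on that scale, and overlapped in CPM. Its effective length was 1644, 1661 and 1614 bases with control siRNA and 1758, 2225 and 1653 bases with FOXL2 siRNA. No share over all genes was taken for lower TPM. The CDH11 log2 fold change was -0.03 without control siRNA replicate 3 and -0.13 without control siRNA replicate 1. GJA1 (connexin 43) was at 139, 137 and 122 TPM against 119, 181 and 146 TPM, with FOXL2 siRNA replicate 2 the highest. Its log2 fold change was 0.25 (SE 0.16), and 0.02 without that replicate. NECTIN1, a nectin of adherens junctions, was at 15.7, 15.4 and 16.3 TPM against 17.1, 17.6 and 19.2 TPM, with a log2 fold change of 0.26 (SE 0.09, adjusted p = 0.285 in edgeR), or 0.15 without FOXL2 siRNA replicate 3. NECTIN2, named after its values were seen, was at 57.6 ± 1.13 and 65.5 ± 2.58 TPM (log2 fold change 0.17, SE 0.07, adjusted p = 0.344 in edgeR). NECTIN3, also named after its values were seen, was at 68.7 ± 2.64 and 65.4 ± 14.1 TPM and overlapped (log2 fold change 0.05, SE 0.19). Its CPM values were 79.8, 83.3 and 84.4 against 65.6, 118 and 73.1, with FOXL2 siRNA replicate 2 the highest library. FOXL2 siRNA replicates 1 and 3 lay below every control siRNA library, so the value above 0 rested on replicate 2. NECTIN1 and NECTIN2 did not overlap in CPM, beside 9.97% of all tested genes that were higher in this way, and none of the 3 was called. JUP (plakoglobin) had a log2 fold change of 0.29 (SE 0.16), or 0.14 without FOXL2 siRNA replicate 3, and was at 2.44, 2.69 and 2.19 TPM against 3.73, 2.96 and 3.64 TPM. Its conditions overlapped in CPM and not in TPM, beside 9.30% of all tested genes that were higher in TPM in this way.

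The last list held transcription factors known to repress or activate epithelial junction genes, and 7 of its 12 genes were tested. The repressors SNAI2, TWIST1 and ZEB1 were the most abundant, at 80.1 ± 2.29, 44.8 ± 3.48 and 37.4 ± 1.52 TPM with control siRNA. ZEB1 was at 38.4, 38.1 and 35.6 TPM against 30.1, 30.3 and 31.0 TPM, without overlap. In CPM it was also lower without overlap, beside 10.6% of all tested genes. Its log2 fold change was -0.23 (SE 0.08, adjusted p = 0.277 in edgeR). Without FOXL2 siRNA replicate 2 its log2 fold change was -0.31 with an adjusted p of 0.0237 in edgeR, which passed the threshold in a fit that called 579 genes against 40 with all libraries. SNAI2, TWIST1 and KLF4 had log2 fold changes of -0.11 (SE 0.09), -0.07 (SE 0.07) and 0.13 (SE 0.16). Leaving out a single library gave -0.02 to -0.21 for SNAI2, -0.02 to -0.11 for TWIST1 and 0.01 to 0.32 for KLF4. The lowest value of KLF4 was without FOXL2 siRNA replicate 3 and the highest without replicate 1, and those of SNAI2 nearest to and farthest from 0 were without FOXL2 siRNA replicates 1 and 2.

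**Figure D4:**
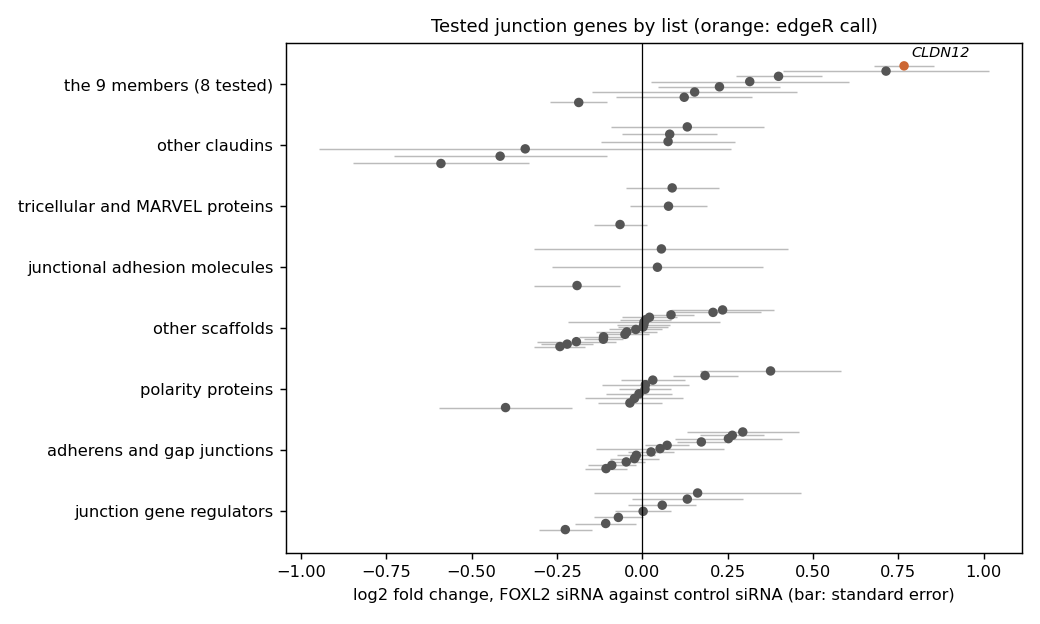
Log2 fold change of each tested junction gene (point) with its standard error (bar), in rows by list, in counts with FOXL2 siRNA against control siRNA. CLDN12, at 0.77, is the gene that edgeR called (orange), and the 56 genes of the 7 other lists have a median of 0.005.

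The genes whose log2 CPM followed CLDN12 most closely over the 6 libraries, among 9468 tested genes with a mean of at least 10 CPM, were OIP5-AS1 (Pearson r 0.996), RABGEF1P1 (0.995), EAF1 (0.993), DICER1 (0.993) and KBTBD6 (0.989). These coefficients describe 6 points that fall into 2 conditions and share their libraries. OIP5-AS1, a long noncoding RNA, was at 84.9, 84.9 and 74.7 CPM against 159, 167 and 139 CPM. DICER1, the RNase that cuts microRNA precursors, was at 82.8, 86.7 and 83.2 CPM against 115, 128 and 114 CPM. In both, as in CLDN12, FOXL2 siRNA replicate 2 was the highest library in CPM. The genes were selected on these same values, so the shared order is not a separate result. In TPM, CLDN12 was highest in FOXL2 siRNA replicate 1, at 34.1 against 33.1 in replicate 2. None of the 5 is a junction gene of the lists, but at most 56 of the 9468 genes compared were in those lists. Nothing is read from this. CLDN1, CLDN11, OCLN, F11R, MARVELD2 and CGN were below the minimum of 10 CPM and were not compared.

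**Figure D5:**
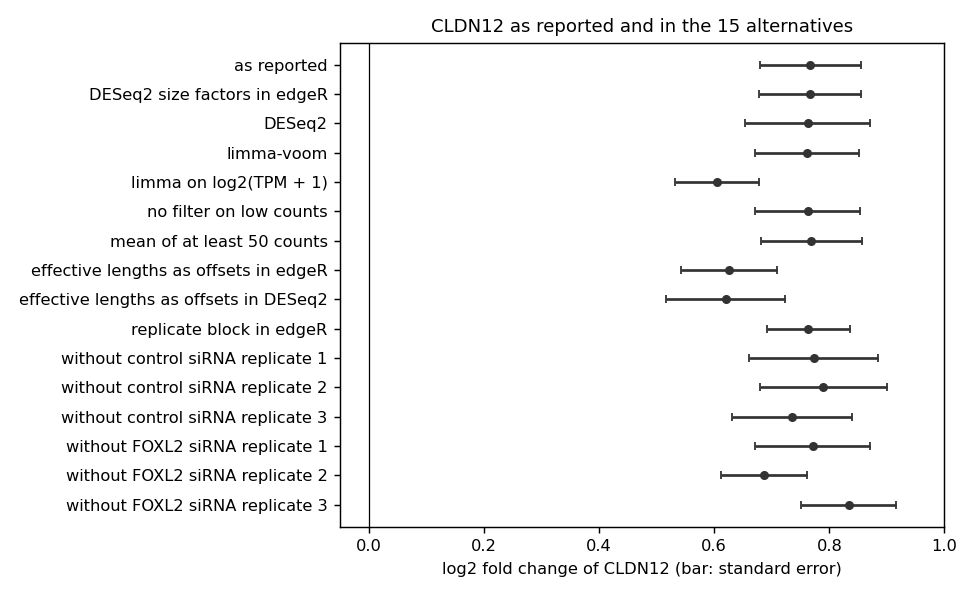
Log2 fold change of CLDN12 (horizontal axis, from just below 0) with its standard error, as reported and in each of 15 alternatives in normalization, tool, filter, transcript length, replicate block and libraries left out. All values lie between 0.60 and 0.83, and the 3 lowest are those that use effective lengths or TPM.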

How the data were processed

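The samples were 6 RNA-seq libraries of Crispr-edited KGN cells, 3 per condition, grouped by the siRNA in the labels. The members and the gene lists were chosen with earlier results of these data known.

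The authors made stranded mRNA libraries, mapped the single-end reads with STAR 2.7.6a, checked them with Picard 2.8.1, estimated expression with RSEM 1.3.1 and tested it with DESeq2 1.26.0 in R 3.6.3. The labels give a mouse build (GRCm38), whereas the identifiers are human Ensembl genes. The annotation release is not given in the sources used here. The deposited expected count is RSEM's estimated count, not normalized. The deposited TPM and FPKM are scaled to library size and length by the authors' run of RSEM, and FPKM was not used. The effective length is that of the same tables. Of 60671 identifiers, 60401 had an entry in the table of symbols.

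Expected counts were rounded, filtered with filterByExpr (15663 genes), normalized by TMM and tested with edgeR 4.0.16 (glmQLFit, glmQLFTest, R 4.3.3), with Benjamini-Hochberg adjustment over all tested genes and a threshold of 0.05. Total counts lay between 23843192 and 28791954, and the limit of 3 counts drawn from a count of 0 covers counting error only. The fit was tested on simulated data. The SE given with an edgeR log2 fold change is its absolute value divided by the square root of the quasi-likelihood F. Coordinates and transcripts are those of GENCODE v29 (GRCh38) and promoters those of RefSeq, which may not match the authors' annotation.

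The genes named are the 9 members, FOXL2, in each junction list the genes called, the 3 highest in mean TPM and the 3 with the largest absolute log2 fold change at a mean of at least 1 TPM, the 5 genes most correlated with CLDN12, the marker genes and the genes that overlap a member; some of the genes this rule names are not reported here. Alternatives were DESeq2 1.42.0 and its size factors, limma-voom and limma on log2(TPM + 1) (limma 3.58.1), other filters on low counts, effective lengths as offsets, the replicate number as a block, and each library left out. Python 3.11.15 was used for tables and plots, with numpy 2.4.6, pandas 2.3.3 and matplotlib 3.10.9.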

Additional observations from a re-analysis of the deposited data

How the results depend on the processing

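The log2 fold change of CLDN12 kept its direction in all 15 alternatives. It was 0.60 with limma on log2(TPM + 1), 0.63 with effective lengths as offsets in edgeR and 0.62 with them in DESeq2, and 0.69 to 0.83 with each library left out in turn. CLDN12 was not called with limma on log2(TPM + 1), nor without control siRNA replicate 1, 2 or 3, where edgeR called 2, 3 and 2 genes in all. The number of genes called was 40 as reported, 350 with DESeq2, 13 with limma on log2(TPM + 1), 70 with no filter, 64 when the mean count had to reach 50, 344 with effective lengths in DESeq2, and 2 to 579 with each library left out, 579 being without FOXL2 siRNA replicate 2. Of the other junction genes, 0 were called as reported, and 1 (ZEB1) with effective lengths in DESeq2 (-0.30, adjusted p = 0.0142) and without FOXL2 siRNA replicate 2. OCLN was -0.13 with limma on log2(TPM + 1) and -0.21 and -0.25 with effective lengths in edgeR and DESeq2. FOXL2 was called in every alternative. CGN was -0.02 and -0.10 with effective lengths in edgeR and DESeq2, and MARVELD2 was between 0.01 and 0.45 over its alternatives. F11R was 0.38 and 0.39 with effective lengths in edgeR and DESeq2. CLDN7, F11R, CGN, CLDN1, OCLN and CLDN11 had at most 108 counts in a library, which limits the precision of their values. DESeq2 gave a larger SE than edgeR for F11R (0.59 against 0.30), CGN (0.43 against 0.30) and CLDN1 (0.33 against 0.20). The same held for OCLN (0.30 against 0.18) and CLDN11 (0.33 against 0.29). The causes were not tested beyond the construction of these alternatives.

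With the replicate block, edgeR called 11 genes, CLDN12 among them, and changed no call among the members or the other junction genes. The deviations of same-numbered libraries from their condition means had correlations of -0.02, 0.06 and 0.04. Those of differently numbered libraries lay between -0.10 and 0.08. Deviations from a mean of 3 libraries sum to 0 within a condition, so these values cannot decide whether same-numbered libraries were paired.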

Other observations

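Of the markers of other cell types, the endothelial, leukocyte and theca or Leydig cell genes did not exceed 2.41 TPM in any library, while KRT7 and SOX9 were higher. The endothelial list (PECAM1, CDH5, VWF, TEK) summed to 2.20 ± 0.276 TPM with control siRNA and 2.79 ± 0.530 TPM with FOXL2 siRNA, with TEK the most abundant. In the leukocyte list PTPRC was the most abundant gene, between 0.40 and 1.01 TPM, and CD3E was at 0 in all libraries. The theca or Leydig cell list (CYP17A1, INSL3, LHCGR, HSD3B2) summed to 0.0733 ± 0.127 and 0.203 ± 0.212 TPM. In the Sertoli cell list SOX9 was at 7.62, 6.85 and 5.66 TPM against 5.09, 9.55 and 6.50 TPM, and DMRT1 did not exceed 0.04 TPM. In the granulosa cell list FOXL2 was the gene called.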
